A study of Mus musculus with 8 samples.

Results

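The retinoid X receptor (RXR) and Nur77 peaks of retinoic acid (RA)-treated mouse embryonic stem cells were compared site by site. Any RXR peak and any Nur77 peak that had at least 1 bp in common were matched, which gave shared, RXR only and Nur77 only peaks. Of 15224 RXR peaks, 7126 were shared and 8098 were RXR only, while of 25995 Nur77 peaks, 7186 were shared and 18809 were Nur77 only. These 41219 peaks were part of 176687 in the 8 peak lists of the series. After merging of matched peaks there were 33997 sites, of which 7090 were shared. Both libraries came from E14Tg2a cells, a mouse embryonic stem cell line, at passages 37 to 40, grown as monolayers without leukemia inhibitory factor (LIF) and given 1 µM RA for 48 h, which turns them toward neuronal cells, with several plates combined per harvest. Chromatin immunoprecipitation with sequencing (ChIP-seq) recovers DNA bound to a protein with an antibody, and a peak is a place where the recovered fragments pile up. Each factor had 1 library, so no difference between the factors has a replicate check and no p-value is given. Intervals are exact Clopper-Pearson 95% intervals, which cover counting error only, and neighbouring peaks are not independent. The lists hold binding and no expression, so the neuronal state of the cells was not checked in them.

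RXR is the partner shared by many nuclear receptors. It binds DNA as a pair with receptors such as the retinoic acid receptors, on direct repeats of the half-site AGGTCA, in which the number of bases between the repeats differs from partner to partner. Nur77, the product of Nr4a1, is an orphan nuclear receptor induced as an immediate early gene. It can bind alone to the half-site extended by A bases (AAAGGTCA, the NBRE), or as a pair with RXR on a direct repeat.

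Sequences that differed in frequency between the classes were runs of alternating purine and pyrimidine (called tracts here, at least 20 bp long within the peak) and short words at promoters. The first set shows the strongest distal peak with a tract among shared and among RXR only peaks, with the longest tract of the window in capitals. The shared site lay in an intron of Dgkg (chr16:22570714-22570813) and the RXR only site between genes (chr17:77177643-77177742). All windows here are 100 bp around the summit, on the forward strand, in mm10, from the RefSeq sequence of GRCm38.p6, and free of annotated exons.

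Dgkg intron, shared: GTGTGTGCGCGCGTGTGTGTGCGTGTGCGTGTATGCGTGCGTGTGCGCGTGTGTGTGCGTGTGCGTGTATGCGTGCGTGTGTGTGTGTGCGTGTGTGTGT

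Intergenic, RXR only: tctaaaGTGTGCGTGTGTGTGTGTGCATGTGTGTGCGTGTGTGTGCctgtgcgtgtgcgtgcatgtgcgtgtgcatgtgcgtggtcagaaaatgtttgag

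The second set shows the strongest tract-free shared promoter sites, among those with an exon-free window, with a word for NRF1, a factor of genes for mitochondria and growth (GCGC and TGCGC with any base between, read on either strand), or with the cAMP response element (CRE, TGACGTCA), the site of CREB and its relatives. The word is in capitals. The sites were at Rab3gap2 (chr1:185203993-185204092), Fancl (chr11:26387373-26387472), Tmcc1 (chr6:116193501-116193600), Lmbrd1 (chr1:24678526-24678625) and Ahcyl1 (chr3:107696588-107696687).

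Rab3gap2, NRF1 word: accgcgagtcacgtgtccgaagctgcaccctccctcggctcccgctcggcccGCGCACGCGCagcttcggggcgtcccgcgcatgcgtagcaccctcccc

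Fancl, NRF1 word: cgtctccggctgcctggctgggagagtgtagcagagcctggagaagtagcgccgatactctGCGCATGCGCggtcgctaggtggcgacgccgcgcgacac

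Tmcc1, NRF1 word: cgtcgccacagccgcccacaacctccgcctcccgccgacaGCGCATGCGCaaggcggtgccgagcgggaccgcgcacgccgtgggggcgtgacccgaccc

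Lmbrd1, CRE: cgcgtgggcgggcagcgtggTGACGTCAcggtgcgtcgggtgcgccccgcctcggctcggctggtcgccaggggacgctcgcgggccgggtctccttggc

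Ahcyl1, CRE: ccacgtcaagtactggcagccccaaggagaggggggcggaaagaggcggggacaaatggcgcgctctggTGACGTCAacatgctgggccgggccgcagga

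The third set shows distal sites without a tract. The first pair has the word for CTCF, a factor of chromatin loops and insulators (chr15:101145538-101145637 and chr11:45008264-45008363, RXR only). The next pair are RXR only distal sites with a direct repeat, with 5 bases (DR5, chr19:24242314-24242413) and with 1 base (DR1, chr8:22731331-22731430) between the half-sites. There was only 1 of each among 2001 such summits, and they are shown because such repeats are the known sites of RXR pairs. The last is the strongest Nur77 only site with a half-site (chr6:51592900-51592999). The word is again in capitals.

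First CTCF word: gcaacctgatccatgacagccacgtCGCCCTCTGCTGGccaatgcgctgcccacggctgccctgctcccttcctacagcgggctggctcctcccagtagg

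Second CTCF word: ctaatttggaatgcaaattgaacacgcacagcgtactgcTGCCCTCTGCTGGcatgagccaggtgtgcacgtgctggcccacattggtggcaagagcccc

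DR5: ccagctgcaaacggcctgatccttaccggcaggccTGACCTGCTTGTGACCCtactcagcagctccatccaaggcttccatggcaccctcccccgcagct

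DR1: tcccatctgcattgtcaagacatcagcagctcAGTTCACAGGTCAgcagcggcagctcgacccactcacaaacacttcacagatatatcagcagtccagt

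Nur77 only half-site: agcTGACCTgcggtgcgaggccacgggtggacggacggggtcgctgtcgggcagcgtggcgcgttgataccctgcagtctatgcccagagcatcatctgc

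The RXR list overlapped the Nur77 list at 46.8% of its peaks (46.0 to 47.6), and the Nur77 list overlapped the RXR list at 27.6% (27.1 to 28.2). The lists differed in size and depth. Background density, worked out from fold and −log10 p, was 1.87 fragments per kb for RXR and 3.82 for Nur77, and a median peak rested on 9 and 10 fragments. The part of depth in the unequal shares was not tested. With the same number of top peaks by −log10 p in each list, the RXR share was 56.5% for the top 1000, 52.6% for 2000, 45.8% for 5000, 39.1% for 10000 and 36.5% for 15224 (35.7 to 37.2). At 15224 the RXR list was whole, down to a −log10 p of 5.02, while the Nur77 list stopped at 10.3. Most matches were simple. Of the shared RXR peaks, 7033 met 1 Nur77 peak and 93 met more, at most 3, and the median overlap of matched peaks was 113 bp. A limit of 1 bp decided few calls, since 40 RXR peaks were matched by 10 bp or less and 34 RXR only peaks had a Nur77 peak within 10 bp.

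Sharing followed peak strength. Shared peaks had a median −log10 p of 13.1 in RXR and 14.3 in Nur77, against 10.0 in RXR only and 10.4 in Nur77 only peaks. The 500 strongest RXR peaks overlapped Nur77 at 96.4% (94.4 to 97.9), and those ranked 10001 to 15000 at 34.0% (32.6 to 35.3). The 500 strongest Nur77 peaks overlapped RXR at 96.0% (93.9 to 97.5), and those ranked 20001 to 25995 at 14.4% (13.5 to 15.3). Tracts made up 83.8% of those top RXR peaks and 80.6% of the top Nur77 peaks, and the decline was also present without them. Among peaks without a tract the share fell from 100% to 31.7% in RXR and from 96.9% to 13.9% in Nur77. Among promoter peaks alone it fell from 97.4% to 34.9% in RXR and from 96.6% to 24.2% in Nur77. At matched peaks the −log10 p of both factors had a Spearman rho of 0.609 over 7126 peaks, and 0.378 among the 2287 at promoters. These are descriptions across sites that share both libraries. RXR had the higher value at 44.0% of matched peaks.

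**Figure D1:**
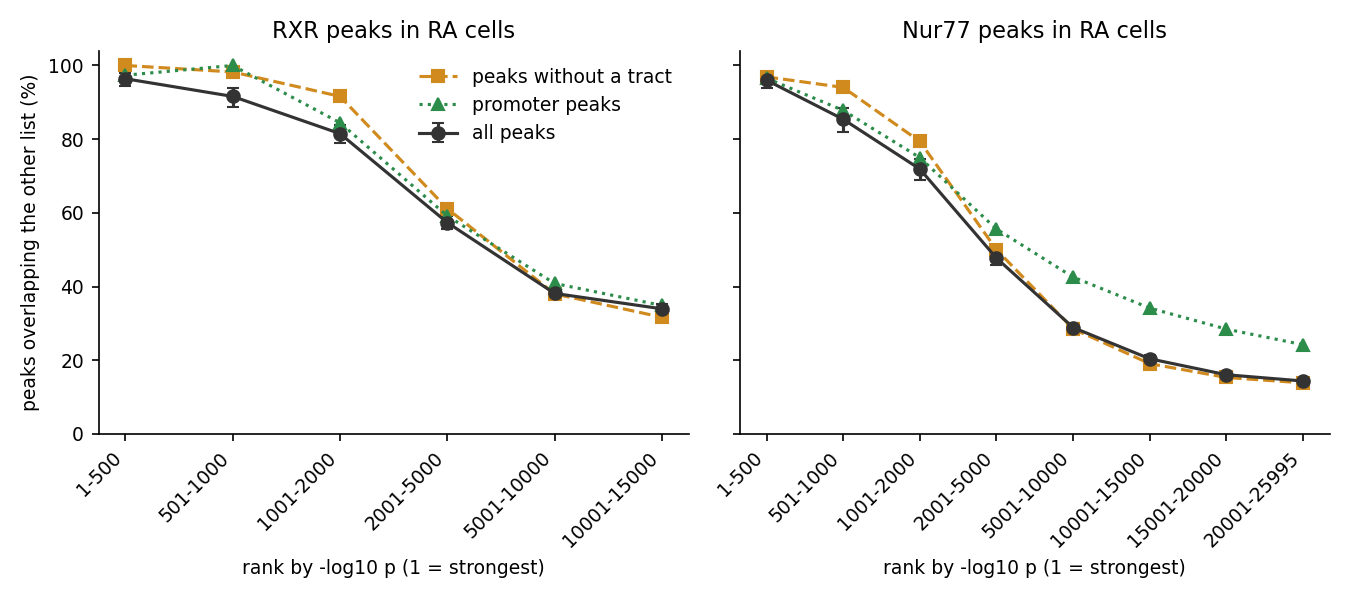
Share of RXR peaks (left) and Nur77 peaks (right) that overlapped the other list, against the rank of the peak by −log10 p, for all peaks (with 95% intervals), peaks without a tract and promoter peaks. RXR peaks ranked beyond 15000 are not drawn, and all 3 lines fall from 96.0% or more in the first 500 ranks to 34.9% or less in the last RXR bin and 24.2% or less in the last Nur77 bin.

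The strongest shared sites lay away from promoters. The first by the lower of the 2 −log10 p values was the Dgkg intron printed above, with 135 in RXR and 115 in Nur77. The second was intergenic (chr17:86720181-86720555), with 110 and 135. The third was in an intron of Rassf3, a Ras association domain gene (chr10:121464147-121464446), with 109 and 128. The fourth was in an intron of Ldlrad3 (chr2:102086728-102086944), with 143 and 109, and the fifth was intergenic (chr17:13305904-13306291), with 115 and 105.4. The first 4 held tracts of 65 to 174 bp, and the longest run in the fifth was 5 bp. Each was also a peak in every other list of the series except the second FGFR1 library from RA cells. No control library is named, so peaks at tracts or in nearly all lists could not be set against unenriched DNA. Signal unrelated to the antibody was not tested.

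The strongest unshared sites were weaker, and mostly tracts as well. The top RXR only site was the intergenic one printed above, with a −log10 p of 63.3, followed by an intergenic site on chromosome 3 with 57.1 and sites in introns of Nlgn1 (54.1), Cntn5 (52.7) and Egflam (51.9). Nlgn1 and Cntn5 encode adhesion proteins of neurons. The top Nur77 only site had 90.1, and the next 3 lay in introns of Efcab6 (57.3), Ap3b1 (51.0) and Rb1, the retinoblastoma tumor suppressor (49.95), before an intergenic site on chromosome 7 (49.2). Of these 10 sites, 9 held a tract, of 34 to 98 bp. The Efcab6 site did not, with a longest run of 10 bp.

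The classes differed in where they lay. A promoter peak was one with at least 20 bp within 1000 bp of any transcript start in GENCODE M21. Promoters held 32.1% of shared RXR peaks (31.0 to 33.2) and 32.1% of shared Nur77 peaks (31.0 to 33.2), 41.1% of RXR only peaks (40.0 to 42.2) and 24.0% of Nur77 only peaks (23.4 to 24.6). Shared minus RXR only was −8.98 percentage points, and shared minus Nur77 only was 8.10. Tracts were found in 54.8% of shared RXR and 54.5% of shared Nur77 peaks, in 36.8% of RXR only and in 34.6% of Nur77 only peaks. Median peak widths were 159, 134, 122 and 103 bp in the same order, and a wider peak has more room for a tract and for an overlap. Among peaks without a tract the promoter share was 63.0% (61.3 to 64.7) in shared RXR peaks and 60.9% (59.6 to 62.3) in RXR only peaks, with intervals that overlap, against 62.9% (61.2 to 64.5) in shared Nur77 peaks and 33.4% (32.6 to 34.3) in Nur77 only peaks. With tract peaks left out of both lists before matching, the difference for RXR was 3.03 points in the other direction, and that for Nur77 was 30.1. With equal numbers of tract-free top peaks they were −3.18 and 28.0, so for RXR the sign of the tract-free difference depended on list size. Above a −log10 p of 10 the difference for Nur77 also turned, to −2.31.

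**Figure D2:**
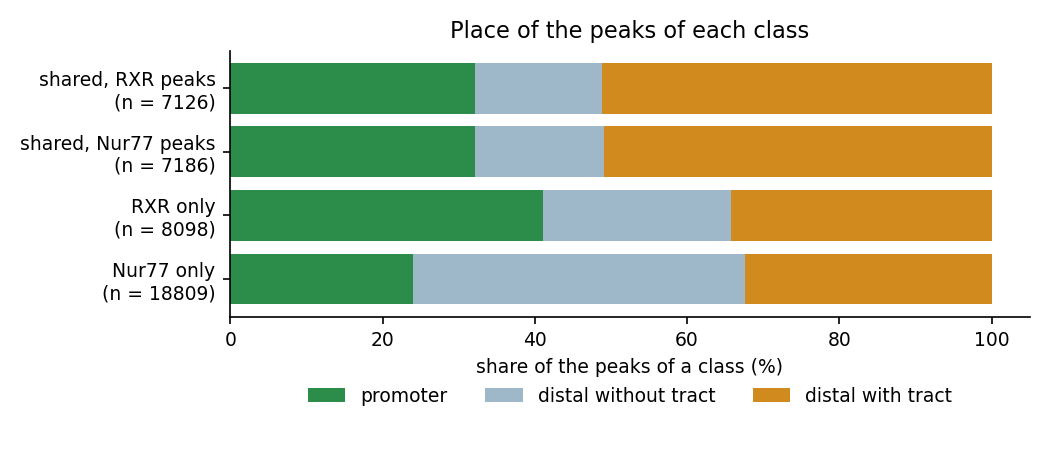
Share of the peaks of each class at promoters, at distal sites without a tract and at distal sites with a tract, in percent, with the number of peaks beside each bar. Distal tract sites make up 51.2% and 51.0% of shared RXR and Nur77 peaks but 34.2% and 32.4% of RXR only and Nur77 only peaks, and distal sites without a tract reach 43.5% in Nur77 only.

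With 15224 top peaks in each list, 24.7% of shared RXR peaks (23.6 to 25.8), 43.9% of RXR only peaks (42.9 to 44.9) and 18.8% of Nur77 only peaks (18.0 to 19.6) lay at promoters. Among the top 1000 of each list the promoter shares were 7.79%, 6.21% and 5.96%, with overlapping intervals, and tracts were in 80.5%, 93.6% and 83.5%. In the full lists, which differ in size, the shared share differed most at distal sites without a tract. There, 1191 of 3192 RXR peaks (37.3%, 35.6 to 39.02) and 1215 of 9405 Nur77 peaks (12.9%, 12.3 to 13.6) were shared. Most matches were simple, so the shared counts of both lists are close by construction at each kind of site. The unequal shares therefore restate the unequal totals and are no separate finding about distal sites without a tract. At promoters the shares were 40.7% and 33.8%, and at distal tract sites 56.8% and 37.5%.

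Distal shared sites lay a median of 14.6 kb from the nearest transcript start, RXR only sites 14.0 kb and Nur77 only sites 12.8 kb. Of distal tract-free summits, 45.5% of Nur77 only (44.5 to 46.6) were in introns, against 38.9% of RXR only (36.7 to 41.1) and 40.7% of shared RXR peaks (37.9 to 43.6). Coding exons held 17.3% of RXR only (15.7 to 19.02), 14.7% of shared RXR (12.7 to 16.8) and 13.0% of Nur77 only summits (12.3 to 13.8). The tracts themselves were nearly all of the CA/TG kind, 99.8% in shared RXR, RXR only and shared Nur77 peaks and 99.9% in Nur77 only peaks. Their median length was 58 bp at shared sites of either list, 40 bp at RXR only and 39 bp at Nur77 only sites. Of RXR peaks at distal tracts of 20 to 29 bp, 40.4% were shared, and at 50 bp or longer 73.8%. For Nur77 the shares were 17.5% and 57.8%. Median −log10 p rose with tract length too, from 11.6 to 16.7 in RXR and from 11.2 to 15.8 in Nur77.

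The summit is the base with the most fragments. Matched peaks overlap by definition, which keeps their summits near each other, so the distances are a description. The median distance between RXR and Nur77 summits was 21 bp (20 to 22), with quartiles of 8 and 48 bp. At 76.5% of matched RXR peaks (75.5 to 77.5) the summits were within 50 bp. The distance was shortest at distal tracts, with a median of 14 bp, then at distal sites without a tract with 27 bp (24 to 29) and at promoters with 32 bp (31 to 35). Neither factor led along the gene. At promoters the Nur77 summit was upstream of the RXR summit at 49.5% and downstream at 49.4%, and the median of the signed distance was 0 bp.

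**Figure D3:**
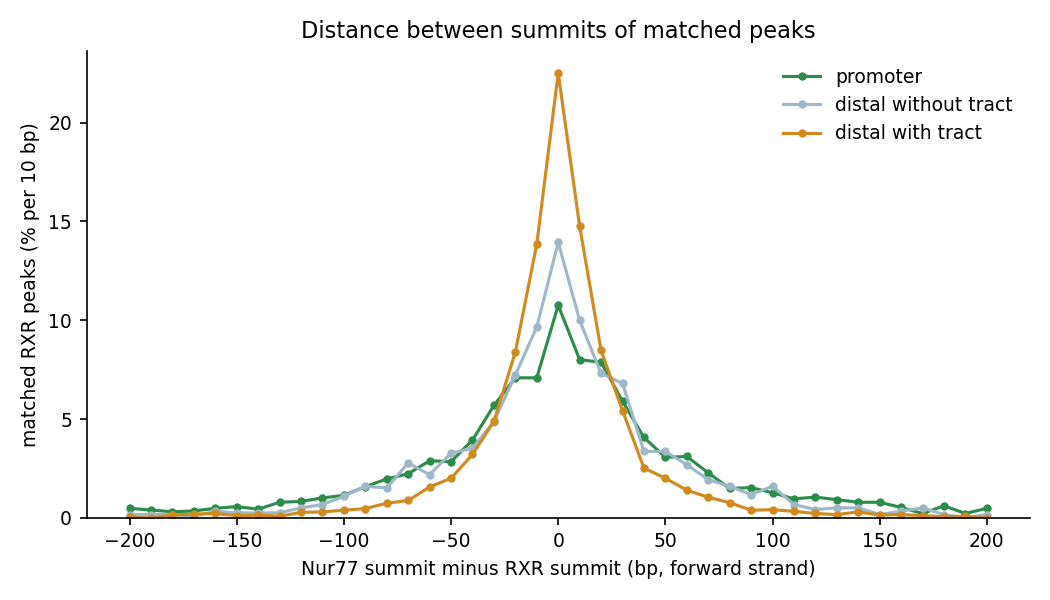
Distance from the RXR summit to the Nur77 summit of matched peaks, in bp on the forward strand, as percent of matched RXR peaks per 10 bp. The 3 curves peak at 0, and that for distal tracts is the narrowest, with 86.4% of pairs within 50 bp against 63.8% at promoters.

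At promoters, shared summits were nearer to a transcript start than unshared ones. Of shared promoter peaks, 36.9% in RXR (34.9 to 38.9) and 36.7% in Nur77 (34.8 to 38.8) had their summit within 50 bp of a start. The share was 29.8% in RXR only (28.2 to 31.4) and 21.5% in Nur77 only (20.3 to 22.7). Within 100 bp the shares were 53.0%, 52.7%, 45.4% and 36.8%. The median summit lay 17 bp (shared RXR), 11 bp (shared Nur77), 42 bp (RXR only) and 59 bp (Nur77 only) downstream of the start. CpG density around the summit was 10.8, 10.7 and 10.6 per 100 bp in shared RXR, shared Nur77 and RXR only promoter peaks, and 7.99 in Nur77 only peaks.

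Words for NRF1 and CREB, rather than nuclear receptor half-sites, were more frequent at shared promoters. In all, 23 words were counted on both strands in windows of 100 bp, at the summit and, as a local comparison, centred 400 bp from it on each side, and promoter values are for peaks without a tract. A word is a string of letters and no evidence that its factor was bound. The NRF1 word was at 11.3% of shared RXR (9.94 to 12.7) and 12.7% of shared Nur77 promoter summits (11.3 to 14.3), against 4.36% of RXR only (3.67 to 5.14) and 4.89% of Nur77 only (4.25 to 5.59). Their flanks had 0.764%, 0.754%, 0.722% and 0.620%, and 2.25% of all transcript starts held it. Among RXR promoter peaks above the median −log10 p of 9.57 it was at 14.9% of shared and 6.47% of RXR only summits, and at or below it at 6.37% and 2.67%. For Nur77 the same values were 17.0% and 7.93% above a median of 9.79, and 6.17% and 2.57% at or below it. Such a cut does not equate strength, since sharing also rose with strength within the upper part.

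The CRE was at 3.00% of shared RXR (2.31 to 3.84) and 3.60% of shared Nur77 promoter summits (2.84 to 4.50), 0.802% of RXR only (0.520 to 1.18) and 1.12% of Nur77 only (0.820 to 1.49), with 0.802% at all starts. The E-box CACGTG followed the same order, with 6.95% and 7.59% at shared RXR and Nur77 summits, 4.65% at RXR only and 5.64% at Nur77 only. The E-box, and the NRF1 word with A or G at its open base, are themselves short runs of alternating purine and pyrimidine. Leaving out peaks with a tract keeps such shorter runs. At distal tracts the NRF1 word was at 3.43% of shared RXR, 1.98% of RXR only and 1.67% of Nur77 only summits. The E-box was there at 8.74%, 8.99% and 10.3%. How far the promoter words follow from such runs was not tested. At distal tract-free sites the CTCF word was at 2.50% of RXR only (1.86 to 3.28), 1.93% of shared RXR (1.23 to 2.88), 2.22% of shared Nur77 (1.47 to 3.22) and 0.781% of Nur77 only summits (0.602 to 0.997), and at 0% to 0.0549% of their flanks.

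The half-site AGGTCA, which is also part of every NBRE counted, was no more frequent at shared summits than beside them. At tract-free promoters it was at 67 of 2030 shared RXR (2.57% to 4.17%) and 3.06% of shared Nur77 summits (2.36 to 3.90), with 4.36% and 4.89% in the flanks. At distal sites without a tract it was at 7.53% of Nur77 only summits (6.97 to 8.13) with 6.37% in the flanks, at 6.20% of RXR only (5.18 to 7.34) with 5.67%, and at 3.78% of shared RXR (2.77 to 5.02) with 5.08%. The NBRE was at 0.220% of Nur77 only distal tract-free summits (0.130 to 0.347) and at 0.507% of their flanks. Direct repeats of the half-site, with A or G allowed at its start, G or T before its TCA, and 0 to 8 bases between the repeats, were found at 7 shared RXR, 8 shared Nur77, 19 RXR only and 50 Nur77 only summits, or 0.0982%, 0.111%, 0.235% and 0.266%. The pair of flank windows of each peak held 58, 59, 70 and 186 such repeats in the same order. A window without these letters may still be bound through others.

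**Figure D4:**
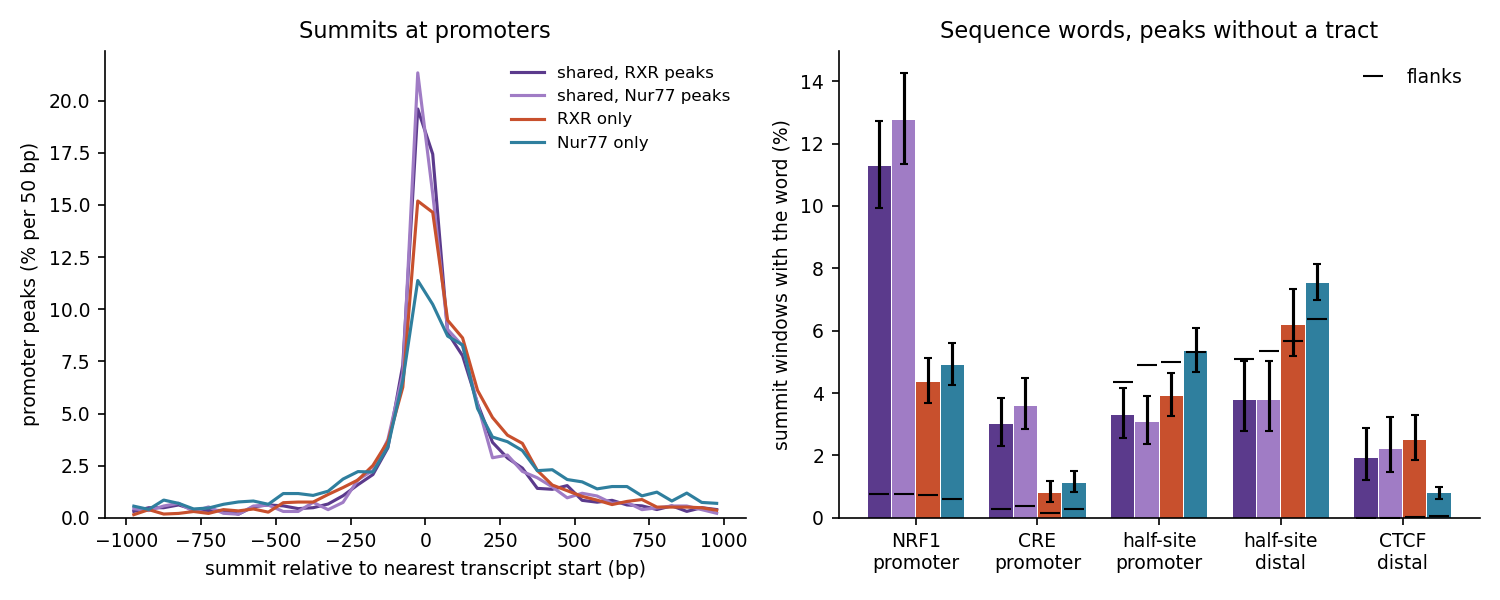
Left, distance of promoter summits from the nearest transcript start in bp (negative values are upstream), as percent of the promoter peaks of a class per 50 bp. Right, percent of 100 bp summit windows without a tract that hold a word, with 95% intervals and the flank share as a black dash, in the class colours of the left panel. NRF1 and CRE words stand higher in both shared classes, and half-sites lie below their flank dash in both shared classes and above it in Nur77 only distal sites.

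The same promoters were taken by gene. Of 21951 protein-coding genes, 2240 (10.2%) had a shared site at a promoter, 735 (3.35%) had both factors in peaks that did not overlap, 2144 (9.77%) had RXR only and 2693 (12.3%) Nur77 only, which left 14139 (64.4%) with neither. Any RXR peak was at 5119 genes (23.3%), any Nur77 peak at 5668 (25.8%), and either at 7812 (35.6%). The 2975 genes with both were 58.1% of the RXR genes (56.8 to 59.5) and 52.5% of the Nur77 genes (51.2 to 53.8). Where both had separate peaks, the closest pair lay a median of 243 bp apart, and at 178 genes within 100 bp. A gene can have several starts, so separate peaks can belong to different promoters of it. With 15224 top peaks in each list the counts were 1321 shared, 3399 RXR only and 1134 Nur77 only, so the order of the single-factor classes turned with list size. There the Nur77 list stopped at a −log10 p of 10.3 and the RXR list at 5.02, so RXR only can include genes with a weaker Nur77 peak.

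The strongest shared promoter peaks, by the lower −log10 p, were at Setd2, the histone H3 lysine methyltransferase (95.9 in RXR and 103 in Nur77), Fam149b (92.9 and 121), Sfi1, a centrosome protein (69.6 and 86.9), Gm10800 (65.4 and 84.4), the slow muscle troponin Tnnt1 (58.8 and 51.1), the collagen Col19a1 (50.9 and 99.1), Osbpl10 (46.8 and 47.3) and Arhgap26 (44.4 and 43.6). The peaks of Fam149b, Tnnt1, Col19a1, Osbpl10 and Arhgap26 held tracts, and those of Sfi1 and Gm10800 were in every other list. Without a control library, these peaks too could not be set against unenriched DNA. RXR only promoters were led by Tex13a (44.6), Fut9, the fucosyltransferase that makes the stem cell antigen SSEA-1 (38.2), Prrc1 (23.4), the kinase gene Akt1 (22.7), Lrfn5 (21.6), Nynrin (21.5), Nrd1 (21.1) and Sel1l3 (19.97). Nur77 only promoters were led by Gabrb2, a GABA-A receptor subunit (36.4), Tmem94 (31.5), Olfr1330 (27.5), Galp, a galanin-like peptide (27.3), Alox5ap (26.6), 4931408C20Rik (25.8) and Washc2 (25.1). Tracts of 20 bp or more were in the peaks of Tex13a, Fut9, Akt1, Lrfn5, Nynrin and Nrd1, and of Gabrb2, Tmem94, Olfr1330 and Alox5ap. Any transcript start counted, so a peak could lie far inside its gene. The Setd2 peak was in an intron (chr9:110616421-110616966), while the gene starts at 110532597. Peaks of Tnnt1, Col19a1, Osbpl10, Akt1, Nrd1 and Tmem94, among others, were also in introns, past the first start. Summits far from the nearest start were those of Setd2 (−1071 bp), Fut9 (−1213), Akt1 (1045), Nrd1 (−1060) and Gabrb2 (−1109).

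Promoter peaks without a tract and with a summit within 250 bp of a start were listed after the values had been seen. Apart from Gm10800, the strongest shared ones were at Rnf227 (28.2 in RXR and 24.6 in Nur77, summit 34 bp upstream of the start), Smarcd1, a subunit of the BAF chromatin remodeller (23.7 and 27.2), Tmed4 (23.3 and 23.2), the mRNA export gene Thoc1 (22.5 and 29.8), the melatonin receptor gene Mtnr1a (26.4 and 21.3), and Eif2b1 and Gtf2h3 (20.6 and 25.1). Eif2b1 and Gtf2h3, a translation initiation and a transcription factor subunit, face away from each other and share this peak. The Rnf227 window had an NRF1 word and an E-box, and the Thoc1 window a CRE. RXR only genes were Prrc1 (23.4), Sel1l3 (19.97), Tmem117 (19.5), Necab1 (19.1), Nfu1 of iron-sulfur cluster assembly (19.1), Naxd (18.98) and the splicing gene Srrm2 (17.4). Nur77 only genes were Galp, 4931408C20Rik and Washc2 with the values above, the helicase gene Wrn (23.6), Msh4 of meiotic recombination (20.6), Wdfy1 (20.5), Sntg1 (20.4) and Maml3, a Notch coactivator (19.95). The 5 strongest genes with both factors in separate peaks were Gm21738, Crtc2, Prkca, Mrc2 and Cldn23. Between their strongest peaks lay 811, 4292, 329225, 46786 and 236 bp, in that order, so in most of them the factors were not at the same start.

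Of 18 genes for retinoid receptors, binding proteins and metabolism, 5 had a promoter peak (27.8%), against 35.6% of all genes. A shared site was at 1 of them (5.56%), against 10.2% of all genes. The receptor gene Rxrg had a shared site (11.9 in RXR and 8.40 in Nur77). Rarb, the classical RA-induced receptor gene, had separate peaks (9.43 and 8.38), as did Rdh10, of RA synthesis (6.28 and 7.42). Aldh1a3 (7.28) and Rara (6.63) had RXR only (11.1%, against 9.77% of all genes). None of the 18 had Nur77 only, against 12.3% of all genes, and a list of 18 is too short to read this as a difference. Of 26 other nuclear receptors, 11 had a promoter peak (42.3%) and 2 a shared site (7.69%), against 35.6% and 10.2% of all genes. The shared sites were at Nr1h3 (9.75 and 10.2) and Pparg (8.28 and 8.82). Among the relatives of Nur77, Nr4a2 had RXR only (7.68) and Nr4a3 Nur77 only (11.2). Nr1d2, Nr2c2, Nr2f1 and Rora had Nur77 only, from 7.15 to 9.31, and Nr0b1, Nr3c1 and Thrb had separate peaks.

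Of all protein-coding genes, 35.6% were bound and 10.2% had a shared site. Of 16 nuclear receptor coregulators, 11 were bound (68.8%), with 1 shared site, at Ncoa1 (10.5 in RXR and 10.6 in Nur77). The acetyltransferase gene Ep300 had separate peaks (11.1 and 22.4), its relative Crebbp Nur77 only (8.82), and Nrip1 RXR only (8.91). Of 18 genes of the CREB family and immediate early response, 10 were bound (55.6%). Atf1 (15.1 and 11.1), Atf4 (8.97 and 8.38) and Crtc1 (10.5 and 12.1) had shared sites, and Creb1 (7.53), Crem (13.4), Egr2 (13.3) and Srf (13.0) had Nur77 only. Of 9 dopamine genes, 5 were bound (55.6%). Shared sites were at the receptors Drd1 (11.0 and 12.4) and Drd4 (8.30 and 14.7), RXR only at Drd5 (9.48), and Nur77 only at Ddc (10.4) and the vesicle transporter Slc18a2 (17.1). Of 16 neural lineage genes, 7 were bound (43.8%), with a shared site at Map2 (11.6 and 22.4), RXR only at Dll1 (12.2) and Neurog1 (12.7), and Nur77 only at Ncam1, Nes, Neurog2 and Sox1 (7.72 to 12.4).

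Of 39 Hox genes, 14 were bound (35.9%), beside 35.6% of all genes. Hoxa5 (7.28 and 6.37) and Hoxd1 (12.8 and 10.3) had shared sites. RXR only was at 3 (7.69%) and Nur77 only at 7 (17.9%), beside 9.77% and 12.3% of all genes. Splicing genes stood highest of the 12 lists, with 24 of 31 SR protein and hnRNP genes bound (77.4%). Their 7 shared sites were at Hnrnph1, Hnrnpm, Srsf11, Srsf2, Srsf5, Srsf7 and Srsf9, with Srsf9 at 13.5 in RXR and 11.3 in Nur77. Respiratory chain genes had 45 of 93 bound (48.4%), ribosomal protein genes 34 of 82 (41.5%), and zinc finger Zfp genes 135 of 365 (37.0%), the last close to all genes. Olfactory receptor genes, which are expressed mainly in the nose, had 33 of 1093 bound (3.02%), 7 of them shared. With 15224 top peaks in each list, Nur77 kept 2854 of its 5668 genes (50.4%). It kept 4 of 4 dopamine, 6 of 8 CREB and immediate early, 13 of 19 splicing, 3 of 5 neural and 4 of 8 coregulator genes, and 0 of 3 retinoid, 1 of 10 other nuclear receptor and 2 of 11 Hox genes. These counts follow from a Nur77 cut at a −log10 p of 10.3, and the 3 retinoid genes had values of 7.42 to 8.40.

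**Figure D5:**
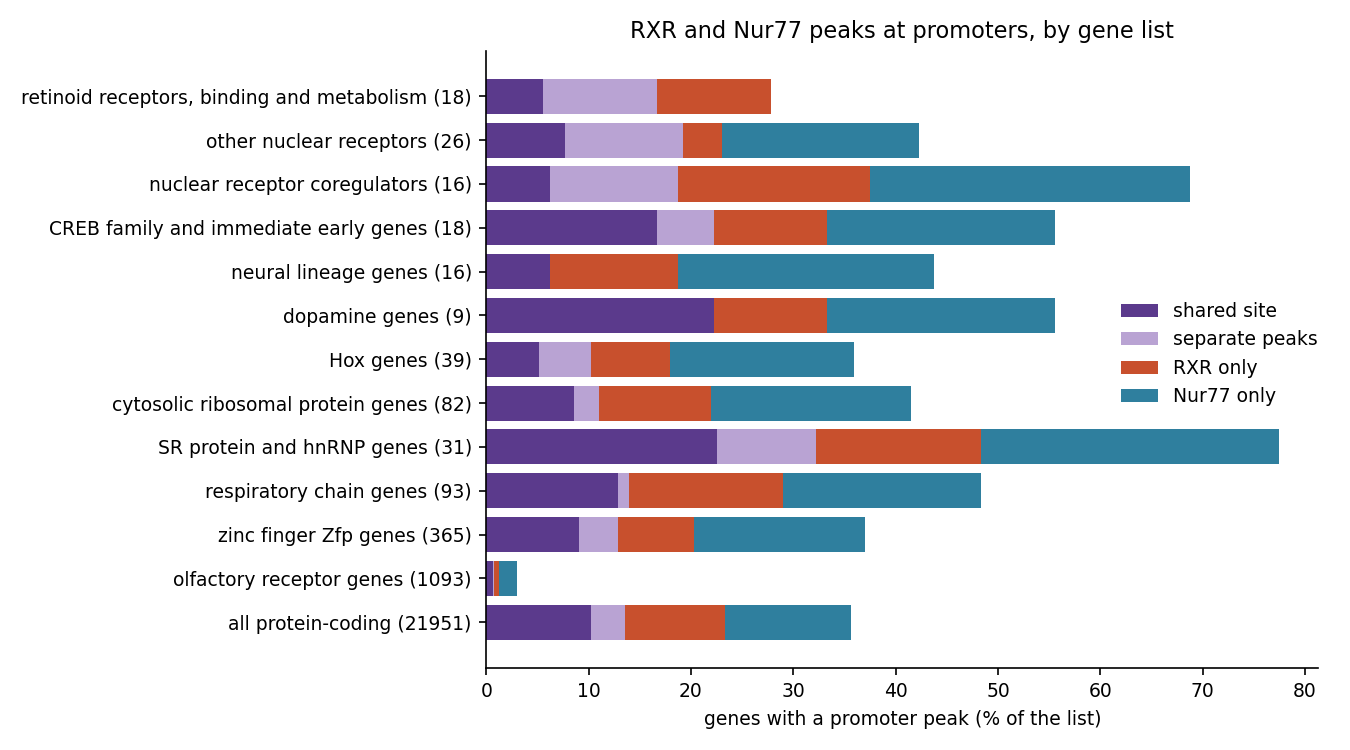
Percent of the protein-coding genes of each list with a shared site, separate peaks of both factors, RXR only or Nur77 only at a promoter, with the list size in brackets and all protein-coding genes at the bottom. SR protein and hnRNP genes reach 77.4%, all genes 35.6% and olfactory receptor genes 3.02%.

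The remaining lists of the series gave a readout that the matching did not use. They ranged from 10634 peaks for H3.3 to 46137 for the first FGFR1 library from RA cells. Shares can thus be set side by side between classes but not between lists. Of shared RXR peaks, 82.3% were also peaks of the first FGFR1 library from RA cells, 55.0% of the histone variant H3.3, 70.0% of RXR in LIF and 60.0% of Nur77 in LIF. For RXR only peaks these shares were 43.4%, 13.7%, 32.6% and 18.2%, and for Nur77 only peaks 35.7%, 12.7%, 24.4% and 19.8%. The difference was present both above and below the median strength, a cut that does not equate the strength of shared and single-factor peaks. Within the stronger part, RXR promoter peaks were shared at 97.4% in ranks 1 to 500 and at 59.2% in ranks 2001 to 5000. Among RXR promoter peaks above the median, 57.1% of shared and 21.1% of RXR only were H3.3 peaks, and at or below it 36.5% and 14.2%. At distal tract-free RXR sites above the median the H3.3 shares were 59.1% and 12.4%. The second FGFR1 library from RA cells, with 14082 peaks, differed by place. The paper puts most of these peaks in proximal promoters, which bears on the low shares at distal sites. It held 63.8% of shared RXR promoter peaks, 48.6% of RXR only and 39.1% of Nur77 only promoter peaks, but 0.466%, 0.108% and 0.148% of the same classes at distal tracts. At shared distal tracts the first FGFR1 library held 78.9%.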

How the data were processed

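Peak lists of RXR and Nur77 ChIP-seq from RA-treated E14Tg2a cells were analysed, with 6 other lists of the series as a further readout. The authors aligned reads to mm10 with Bowtie 1.0, kept uniquely mapped reads and called peaks per library with MACS2 at a p limit of 1e-05. No control library is named, cells of several plates went into a harvest, and the lists were not pooled. Unique mapping removes reads from near-identical repeats, and a local background can raise or lower the fold. Each deposited list gives a fold, which is the ratio of summit pileup to background, a −log10 p-value, a −log10 q-value, a score of 10 times the −log10 p-value, and the summit offset. All of these values are deposited per peak. Fold and −log10 p-value were solved for whole fragments at the summit (100% within 0.002). The total depth is not given in the sources used here.

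Peaks were matched by an overlap of 1 bp. Starts came from 141767 transcripts of GENCODE M21, and sequences from the RefSeq copy of GRCm38.p6. The peak nearest by summit was used where several matched. Analyses used Python 3.11.15 with pandas 2.3.3 and SciPy 1.17.1, and interval matching and word search were tested on simulated data. No feature was tested, since each group was 1 library. Named were the 5 strongest peaks and 8 strongest promoter genes of each class, 5 genes with separate peaks, and the members of 12 gene lists, some given in the text only as counts and a few not reported here. The members and lists were chosen with earlier results of these data known, so no list is independent evidence. Alternatives were equal numbers of top peaks, a −log10 p of at least 10, an overlap of 50% of the shorter peak, summits within 100 bp, promoters of 500 bp, no tract peaks, and chromosomes 1 to 19, X and Y.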

Additional observations from a re-analysis of the deposited data

Results flagged for a closer look

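The promoter share of shared against single-factor peaks moved in opposite directions in the lists. In the RXR list, shared minus RXR only was −8.98 percentage points, and in the Nur77 list, shared minus Nur77 only was 8.10. The difference between the lists was not tested, since each had 1 library. Tracts were in 54.8% of shared RXR and 36.8% of RXR only peaks. Without tract peaks the differences were 3.03 and 30.1 points. With equal numbers of top tract-free peaks they were −3.18 and 28.0, and at a −log10 p of at least 10, tracts included, −14.8 and −2.31. The part of tracts in the opposite signs was not tested.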

How the results depend on the processing

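The values below are without a test, and each comes from 1 library per factor, so no replicate could be left out. No paired analysis was possible because each factor had a single library and no test was run. With equal numbers of top peaks, 36.5% of RXR and 36.5% of Nur77 peaks were shared, and promoters held 24.7% and 24.5% of shared RXR and Nur77 peaks, 43.9% of RXR only and 18.8% of Nur77 only peaks. The genes were 1321, 3399 and 1134 (shared, RXR only, Nur77 only), the summit distance 17 bp, and the differences in promoter share -19.2 and 5.67 points (shared minus RXR only, shared minus Nur77 only). At a −log10 p of at least 10, 49.6% of RXR and 28.2% of Nur77 peaks were shared, and promoters held 20.1% and 19.8% of shared RXR and Nur77 peaks, 34.9% of RXR only and 22.2% of Nur77 only peaks. There were 851 genes with a shared site and 1315 with RXR only, the distance was 15 bp and the differences -14.8 and -2.31 points, the second with its sign turned. Matching by 50% of the shorter peak gave 44.1% and 25.9% shared, promoter shares of 30.4%, 30.4% and 24.8% (shared RXR, shared Nur77, Nur77 only), 19 bp, and differences of -11.5 and 5.59 points. Matching by summits within 100 bp gave 42.8% and 25.1% shared, promoter shares of 29.8%, 29.7%, 42.2% and 25.1% (shared RXR, shared Nur77, RXR only, Nur77 only), 18 bp, and differences of -12.4 and 4.56 points. Promoters of 500 bp held 29.1%, 29.2%, 37.6% and 19.9% in the same order. Without tract peaks, 38.2% of RXR and 20.7% of Nur77 peaks were shared, and promoters held 63.6% and 63.4% of shared RXR and Nur77 peaks, 60.6% of RXR only and 33.4% of Nur77 only peaks. The distance was 31 bp and the differences 3.03 and 30.1 points, the first with its sign turned. Added after seeing the data, equal numbers of top peaks without tracts: 26.2% of RXR and 26.3% of Nur77 peaks were shared, and promoters held 59.4% and 59.1% of shared RXR and Nur77 peaks, 62.6% of RXR only and 31.1% of Nur77 only peaks. There were 1333 genes with a shared site and 1264 with Nur77 only, the distance was 27 bp and the differences -3.18 and 28.0 points. The differences in promoter share, the splits by strength and the list of tract-free promoter genes were also added after seeing the data. Leaving out scaffolds and the mitochondrial genome removed only 2 RXR and 3 Nur77 peaks, all mitochondrial, so it could hardly move a value, and none moved beyond its interval. Genes with RXR only or Nur77 only have no count under the 50% and summit matches, which do not change which genes have each factor. Depth limits weak peaks, since a median peak rested on 9 or 10 fragments, and a site with 1 factor only may hold the other below the p limit.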

Other observations

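Shared promoter peaks more often reached the promoters of several genes. They were also wider, and a wider peak can reach more promoters. Median widths at promoters were 162 bp in shared RXR, 136 bp in RXR only and 109 bp in Nur77 only peaks. The part of width was not tested. Of 2287 shared RXR promoter peaks, 10.8% (9.56 to 12.1) reached the promoters of at least 2 protein-coding genes, against 7.70% of RXR only (6.81 to 8.66) and 8.35% of Nur77 only (7.56 to 9.19). Promoter peaks without any protein-coding gene were 9.14% of shared RXR, 7.28% of RXR only and 13.9% of Nur77 only. Single-factor promoter peaks often had the other factor nearby: 19.5% of RXR only promoter peaks had a Nur77 peak and 16.6% of Nur77 only promoter peaks an RXR peak within 500 bp, against 1.80% and 1.49% at distal tracts.

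Chromosome X had few peaks of either factor, 1.04 per Mb for RXR and 1.12 for Nur77. The autosomes ranged from 4.24 to 9.76 and from 6.74 to 17.2, and chromosome Y had 0.109 and 0.163. The number of copies of X and Y per cell was not taken into account. Of the 178 RXR peaks on X 38.8% were shared, and of the 192 Nur77 peaks on X 35.9%. The autosomes ranged from 40.6% to 50.7% and from 25.5% to 32.2%.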
